A study of Mus musculus with 12 samples.

Results

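The enzymes that build purine nucleotides from small precursors were followed through terminal erythroid differentiation in mouse bone marrow. They were chosen by gene symbol: Ppat, Gart, Pfas, Paics, Adsl and Atic, which make inosine monophosphate (IMP), and Impdh1, Impdh2, Gmps and Adss, which turn IMP into guanine or adenine nucleotides. These are 10 of the 29838 genes measured, and all 10 were among the 12994 genes tested, those with at least 1 FPKM in at least 3 libraries. FPKM is fragments per kilobase of transcript normalised to the number of mapped fragments, so levels of different genes can be set side by side. Between libraries the FPKM also move with the share taken by a few abundant transcripts, and the values that rest on this scaling are named where they occur.

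RNA-seq was performed on 4 stages of erythroblasts, proerythroblasts (Pro), basophilic (Baso), polychromatic (Poly) and orthochromatic (Ortho) erythroblasts, with 3 libraries each and 12 in all. All cells came from the bone marrow of WT animals, described in the methods as male C57BL/6 mice aged 8 weeks, and no treatment, mutation or transgene is named for any group. Cells lacking CD45, CD11b and GR1 were sorted, Pro by high CD44 and low Ter119, and the later stages among Ter119-positive cells by CD44 and cell size, both of which decline as the cells mature. Ortho replicates 2 and 3 carry the cell type name Erythroblast only and were placed by their titles. Nothing in the labels says that the 3 libraries of a stage came from separate mice, so the p-values measure only the spread between these libraries, which may be technical.

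Purine rings are assembled stepwise on phosphoribosyl pyrophosphate (PRPP), with one-carbon units carried by folate, and IMP is the branch point for AMP and GMP. Dividing cells draw on this route for DNA and RNA, while cells can also recover bases and nucleosides by salvage. Mature red cells cannot complete the de novo route and keep their adenine nucleotides by salvage, and erythroblasts are the last nucleated cells before that state.

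Paics and Ppat, both enzymes of the IMP-forming chain, lie head to head on mouse chromosome 5. In GENCODE M21 on mm10, Ppat occupies chr5:76913249-76951578 on the minus strand and Paics chr5:76951307-76967509 on the plus strand, and they share 272 exonic bases on opposite strands. The start regions of the members were searched for 3 short motifs, as a description only. The windows, from RefSeq on GRCm38.p6, run from 250 bases before each transcription start to 50 bases after it. Of 9 members with a window, 3 held CACGTG, the E-box read by MYC and USF proteins, against 7.15% of all 32851 windows. The 30 bases around each of these matches are shown 5′ to 3′ on the plus strand, the strand of all 3 genes, with the CACGTG in capitals.

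Paics: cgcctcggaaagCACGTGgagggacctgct
Impdh2: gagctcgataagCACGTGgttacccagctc
Atic: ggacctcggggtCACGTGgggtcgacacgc

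The Paics stretch lies at chr5:76951087-76951116, with the motif starting 203 bases before the RefSeq start of Paics and overlapping an annotated UTR of Ppat. The Impdh2 stretch lies at chr9:108560314-108560343 and the Atic stretch at chr1:71557137-71557166, with motifs starting 110 and 7 bases before the RefSeq starts. Both motifs overlap an annotated UTR of the gene's own GENCODE transcripts. That of Atic begins at base 71557149, ahead of the GENCODE start of Atic at 71557150. GGGCGG, the core of the GC box, was in all 9 members with a window and in 35.7% of all windows. The letters AGATAA, bound by erythroid transcription factors of the same family as Gata1, were in 1 member, Gmps, and in 11.2% of all windows. Each motif was searched on both strands and counted apart from the other motifs. These matches are letters in a window and were not tested as binding sites. No window was found for Pfas, and neither of the windows of Impdh1 held CACGTG.

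In Pro, every member was expressed in all 3 libraries, at levels that differed widely between genes. Impdh2, the main IMP dehydrogenase of dividing cells, was the highest at 174.7 ± 17.9 FPKM (SD, n = 3), above 97.2% of the genes tested. Paics followed at 106.7 ± 8.44 FPKM, then Gart at 64.9 ± 2.94 and Atic at 59.5 ± 8.01, whose libraries overlapped. Adss, Adsl, Pfas and Ppat formed a run from 40.2 down to 26.2 FPKM in which each gene overlapped its neighbour. Gmps at 16.8 ± 1.78 and Impdh1 at 13.6 ± 2.05 FPKM were the lowest and also overlapped. The FPKM of the 10 genes summed to 560.3 ± 35.8 in Pro and, stage by stage after it, to 244.5 ± 13.7, 230.9 ± 5.43 and 203.7 ± 0.594. The summed level was thus 43.6% of the Pro level in Baso, 41.2% in Poly and 36.4% in Ortho.

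**Figure D1:**
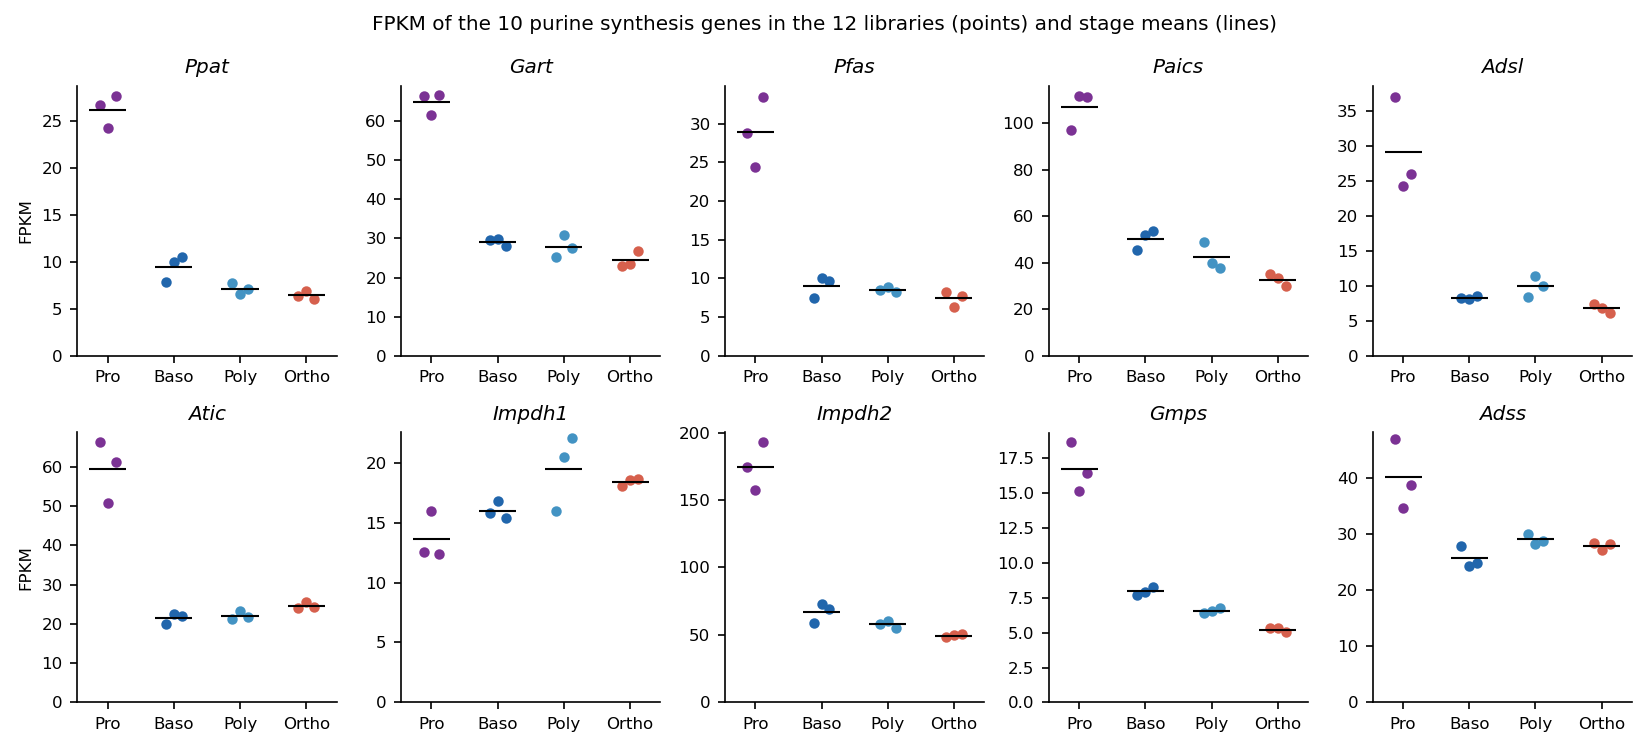
FPKM (vertical axes, from 0) of the 10 purine synthesis genes in the 3 libraries of each stage (points), with stage means as lines. For 9 genes every Pro library lies above every library of the later stages, and Impdh1 alone is lowest on average in Pro, at 13.6 FPKM.

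Members were compared between stages with limma on log2(FPKM + 1), and a gene was called when its adjusted p was under 0.05 and its log2 fold change at least 1 in either direction. In Baso compared with Pro, 7 of the 10 members were called lower and 0 higher, where 8.54% of all genes tested were called lower and 1.82% higher. In Poly compared with Pro, 8 were lower and 0 higher, where 12.8% of all genes were lower and 3.59% higher. In Ortho compared with Pro, 8 were lower and 0 higher, beside 23.8% lower and 6.33% higher among all genes. The median log2 fold change of the members against Pro was -1.25 for Baso, -1.35 for Poly and -1.59 for Ortho, beside medians of -0.23, -0.20 and -0.43 over all genes tested. In each of these comparisons 9 members had all 3 later libraries below all 3 Pro libraries, as did 44.2% of all genes for Baso, 44.5% for Poly and 53.6% for Ortho. The same Pro libraries serve all 3 comparisons, which are therefore not independent of each other. In bulk libraries such as these, fewer cells of a type and less RNA per cell cannot be told apart.

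The hemoglobin genes took 8.45% ± 1.95 of all FPKM in Pro (SD, n = 3), then 35.1% ± 1.79, 36.6% ± 1.56 and 49.6% ± 2.74 in the stages that follow. With these genes left out and each library rescaled, 5 members were called lower in Baso and 5 in Poly, and 6 in Ortho, beside 3.24%, 5.71% and 8.88% of all genes. The median log2 fold change of the members was then -0.94, -1.01 and -1.13, with the median of all genes at 0.03, 0.08 and -0.03. Of all calls, those in the higher direction made up 17.6% for Baso, 21.9% for Poly and 21% for Ortho as deposited, and 53.7%, 64.1% and 63.3% with hemoglobin left out. The members that kept their call under this scaling in all 3 comparisons were Ppat, Pfas, Adsl and Impdh2.

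**Figure D2:**
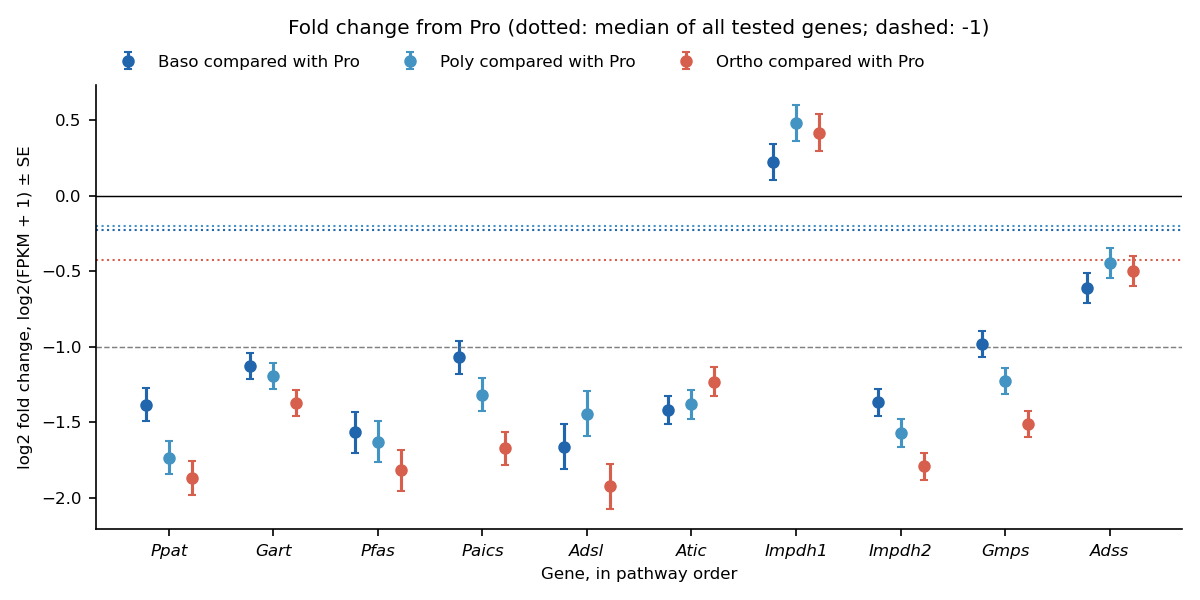
Fold change of each gene from Pro on the log2(FPKM + 1) scale (vertical axis) with its standard error, for Baso, Poly and Ortho, in pathway order. The dotted lines mark the medians of all genes tested, -0.23, -0.20 and -0.43, and the dashed line the call threshold of -1. Impdh1 is above 0, Adss lies near the median of all genes in Ortho, and the other 8 genes lie between -0.98 and -1.93.

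Ppat, the amidophosphoribosyltransferase that commits PRPP to purine synthesis, measured 26.7, 24.2 and 27.6 FPKM in the Pro libraries, 7.81, 10.02 and 10.5 in those of Baso, 7.78, 6.55 and 7.13 in those of Poly and 6.32, 6.86 and 6.09 in those of Ortho. The lowest Pro library, at 24.2, lay well above the highest later library, at 10.5. Its log2 fold change from Pro was -1.38 ± 0.11 (SE) for Baso, -1.74 ± 0.11 for Poly and -1.87 ± 0.11 for Ortho, with limma adjusted p-values of 3.22e-06, 3.84e-07 and 5.25e-08. Ppat fell in all 3 comparisons and ended at a mean FPKM 4.07-fold below Pro.

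Gart, which carries 3 activities of the chain on a single protein, ranged from 61.5 to 66.7 FPKM in Pro and from 23.1 to 30.8 over the 9 later libraries. Its log2 fold change was -1.13 ± 0.0866 in Baso and -1.37 ± 0.0866 in Ortho, the smallest drop among the IMP-forming enzymes in Ortho apart from Atic. In GENCODE M21 Gart lies at chr16:91621186-91646952, and 19.7% of its exonic bases are shared with the antisense gene Gm15964, listed at 0.799 to 1.83 FPKM. Whether the counting used strand is not given in the sources used here, so fragments of the shared bases, and of those shared by Ppat and Paics, cannot be told apart. Gart was not past the fold threshold in any of the 3 comparisons once hemoglobin was left out.

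Pfas, the formylglycinamidine ribonucleotide synthase at chr11:68985697-69008460, ranged from 24.3 to 33.5 FPKM in Pro and from 6.37 to 10.1 over the later libraries. Its log2 fold change was -1.57 ± 0.135 for Baso, -1.63 ± 0.135 for Poly and -1.82 ± 0.135 for Ortho. Paics, whose protein joins a carboxylase and a synthetase, measured 96.9, 111.8 and 111.3 FPKM in the Pro libraries, 45.3, 51.9 and 53.7 in those of Baso, 48.9, 40.1 and 37.9 in those of Poly and 35.3, 33.3 and 29.9 in those of Ortho. Its groups did not overlap between Pro and Baso, and Ortho lay below Poly in all 3 libraries. The log2 fold change of Paics was -1.07 in Baso, just inside the threshold, and -1.67 in Ortho. Leaving out Baso replicate 1 moved the Baso value to -0.998 and ended that call. With hemoglobin left out Paics was at -0.76 in Baso and -0.97 in Poly, short of the fold threshold, and at -1.19 in Ortho. With median centring the Baso value was -0.77.

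Adsl, adenylosuccinate lyase, acts in both the IMP-forming chain and the AMP branch. It measured 37.1, 24.2 and 26.0 FPKM in the Pro libraries, 8.31, 8.20 and 8.56 in those of Baso, 8.39, 11.4 and 10.04 in those of Poly and 7.41, 6.87 and 6.17 in those of Ortho. Pro replicate 1 was the highest, and the lowest Pro library still exceeded every later one. Adsl had the largest fold change of the members in Baso (-1.66 ± 0.149) and in Ortho (-1.93 ± 0.149, adjusted p 3.84e-07), where its mean FPKM was 4.27-fold below Pro. In Poly the largest belonged to Ppat, with Adsl at -1.45.

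Atic, which closes the purine ring and yields IMP, measured 66.4, 50.7 and 61.2 FPKM in the Pro libraries, 19.97, 22.6 and 21.9 in those of Baso, 21.2, 23.3 and 21.6 in those of Poly and 23.9, 25.6 and 24.2 in those of Ortho. All 9 later libraries lay between 19.97 and 25.6 FPKM, and the 3 Ortho libraries were above the 3 Poly libraries. Its fold change from Pro was -1.42 for Baso, -1.38 for Poly and -1.23 for Ortho. The difference between Ortho and Poly was 0.15 ± 0.0958 and did not pass the test (adjusted p 0.316). It was 0.30 with median centring (limma adjusted p 0.0396), 0.29 with hemoglobin left out (0.0501) and -0.03 with equal library sums (0.852). Its sign and its p thus rested on the scaling. In Ortho compared with Pro, Atic was not past the fold threshold once hemoglobin was left out.

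The branches from IMP differed more among themselves than the chain leading to it. Impdh2 measured 174.1, 157.1 and 192.8 FPKM in the Pro libraries, 59.1, 72.6 and 69.4 in those of Baso, 58.4, 60.05 and 55.3 in those of Poly and 48.4, 49.6 and 50.6 in those of Ortho. It remained the highest of the members in every stage while its log2 fold change from Pro was -1.37 ± 0.0916 in Baso and -1.79 ± 0.0916 in Ortho (adjusted p 2.33e-08). Of its 50-base windows, 73.9% also occur in the pseudogene Impdh2-ps, which was listed at 6.22 FPKM in Pro and 1.52 in Ortho, so part of the assignment between these copies is uncertain.

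Impdh1, the other IMP dehydrogenase, went the opposite way. It measured 12.5, 16.0 and 12.4 FPKM in the Pro libraries, 15.8, 16.8 and 15.4 in those of Baso, 15.9, 20.4 and 22.03 in those of Poly and 18.0, 18.6 and 18.6 in those of Ortho. The Ortho libraries lay above all Pro libraries, while those of Baso and Poly overlapped Pro through Pro replicate 2. Its log2 fold change was 0.22 ± 0.121 in Baso (adjusted p 0.134), 0.48 ± 0.121 in Poly (0.0043) and 0.42 ± 0.121 in Ortho (0.00805). These are below the fold threshold, so Impdh1 was not called in any comparison. By adjusted p alone, 23.3% of all genes were higher in Poly and 22.7% in Ortho. With hemoglobin left out the Ortho value was 0.88 (adjusted p 7.96e-05), and with all libraries brought to one FPKM sum it was 0.07 (0.585), so the sign was kept and the size rested on the scaling.

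Markers of granulocytes were present in these libraries. All 10 neutrophil markers were detected, with a summed level of 7270 to 9090 FPKM in Pro, 12500 to 14700 in Baso, 16100 to 19100 in Poly and 14300 to 17800 in Ortho, and none was at 0. Their levels were thus higher in the later stages, as that of Impdh1 was, and their part in the Impdh1 values was not tested. The 12 erythroid markers were all detected and summed to 38400 to 58500 FPKM in Pro and 314000 to 369000 in Ortho, most of it from the 4 hemoglobins among them. Klf1 went from a mean of 320 FPKM in Pro to 69.3 in Ortho, Gata1 from 131 to 30.9 and Epor from 149 to 46.5. Summed levels of the 8 B cell markers ran from 63.1 to 110 FPKM in Pro and 160 to 206 in Ortho, and those of the 8 macrophage markers from 29.3 to 35.2 and 62.3 to 73.9. Of the macrophage markers, 4 (C1qa, C1qb, C1qc and Mrc1) had means under 1 FPKM in both stages. Csf1r (means of 11.7 and 26.4 FPKM), Cd68 (12.3 and 29.1) and Adgre1 (3.84 and 7.85) were higher in Ortho, and Vcam1 (3.03 and 2.25) was lower. For the 8 T and NK cell markers the sums were 21 to 30.3 and 34.3 to 41.3 FPKM, nearly all of it Nkg7 (means of 23.6 and 35.1 FPKM). The other 7 were under 1 FPKM in Pro, and Cd3e was at 0 in both stages. For the 8 megakaryocyte markers the sums were 75.9 to 133 and 44.6 to 53.9 FPKM. Among these, Itga2b (means of 18.9 and 25 FPKM) and Itgb3 (6.03 and 7.09) were higher in Ortho, and the rest were lower.

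Gmps, which aminates XMP to GMP, measured 18.7, 15.1 and 16.5 FPKM in the Pro libraries, 7.68, 7.91 and 8.25 in those of Baso, 6.40, 6.53 and 6.75 in those of Poly and 5.32, 5.31 and 5.01 in those of Ortho. The stages formed separate steps, with no overlap between any of them. Its log2 fold change was -0.98 ± 0.0849 in Baso, where it passed the p threshold (4.52e-06) and missed the fold threshold. It was called lower in Poly, at -1.23, and in Ortho, at -1.51 (adjusted p 3.84e-08).

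Adss, the adenylosuccinate synthetase that opens the AMP branch, had the smallest reduction of the members that were below Pro. It measured 47.0, 34.7 and 38.8 FPKM in the Pro libraries, 27.9, 24.3 and 24.9 in those of Baso, 30.1, 28.3 and 28.8 in those of Poly and 28.4, 27.2 and 28.3 in those of Ortho. The Pro libraries were the highest, but the later stages stayed within 24.3 to 30.1 FPKM. Its fold change from Pro was -0.61 for Baso, -0.44 for Poly and -0.50 for Ortho, with adjusted p-values of 0.000311, 0.00215 and 0.000764, all short of the fold threshold. In Ortho it stood at -0.07 relative to the median of all genes tested, and with hemoglobin left out the fold change was -0.02 (adjusted p 0.89).

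The order of the members within a stage changed accordingly. Impdh1 was the lowest of the 10 in Pro and rank 6 in Baso, Poly and Ortho, separate in each of these from the gene below it. Adss went from rank 5 in Pro to rank 3 in Ortho, where it stood apart from Paics above and Atic below. Impdh2 and Paics held ranks 1 and 2 in every stage, with no overlap between them. At the bottom of Ortho, Pfas, Adsl and Ppat overlapped one another between 6.42 and 7.44 FPKM, and Gmps was below them at 5.21 FPKM.

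3 ratios between members were compared over the 4 stages with an exact permutation test on log2(FPKM + 1) over all 15400 divisions of the 12 libraries, with Benjamini-Hochberg adjustment over the 3. Its p asks whether the ratio differed among the stages and belongs to no single pair of them. Impdh2 exceeded Impdh1 13.9, 9.83 and 15.6 times in the Pro libraries and 2.68, 2.67 and 2.71 times in the Ortho libraries. The stage means were 13.1, 4.19, 3.04 and 2.69 from Pro to Ortho, and they differed among the stages (exact p 0.000455, adjusted 0.000682). The log2 ratio in Ortho minus that in Pro was -2.21, with no overlap between the libraries. Impdh1 thereby made up 7.32% ± 1.69 of the summed FPKM of the pair in Pro and then 19.3% ± 1.57, 25.1% ± 3.53 and 27.1% ± 0.161.

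The ratio of Gmps to Adss, one gene from each branch, was 0.397, 0.436 and 0.424 in Pro and 0.187, 0.195 and 0.177 in Ortho. Its stage means were 0.419, 0.310, 0.226 and 0.187, without overlap between stages, and the log2 difference between Ortho and Pro was -1.01. The exact p over the 4 stages, 6.49e-05 and adjusted to 0.000195, is the smallest these divisions can give. Within a library such a ratio does not depend on how the library was scaled, apart from the added pseudocount, and it shows unequal change rather than which gene changed.

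For Paics to Ppat, the head-to-head pair, the mean ratios from Pro to Ortho were 4.10, 5.36, 5.91 and 5.11, the highest being that of Poly (exact p over the 4 stages 0.0144, adjusted 0.0144). The log2 difference between Ortho and Pro was 0.20 on the log2(FPKM + 1) scale, where Pro replicate 2 (2.16) lay above Ortho replicates 2 and 3 (2.13 and 2.12) in log2 FPKM ratio. With a pseudocount of 5 this difference was -0.12 (adjusted p over the stages 0.123), and without Pro replicate 1 it was 0.12 (0.0559), so neither its sign nor the call among the stages held under every setting.

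**Figure D3:**
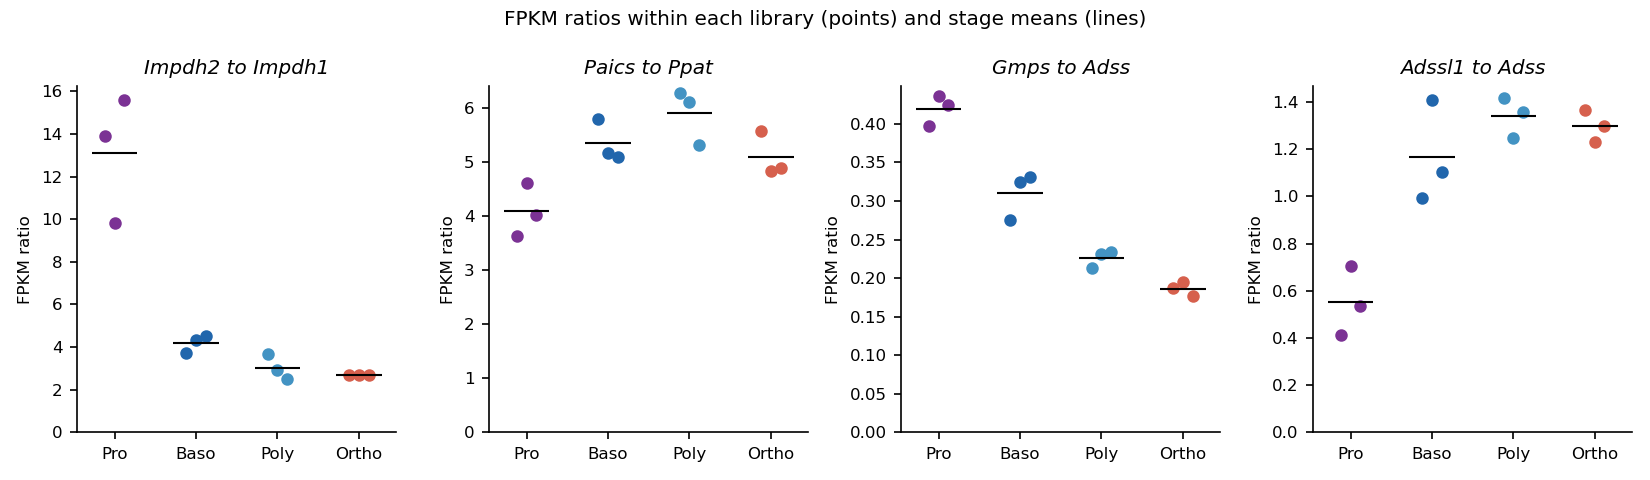
FPKM ratios within each library (points; vertical axes from 0) and stage means (lines). In stage means, Impdh2 to Impdh1 goes from 13.1 in Pro to 2.69 in Ortho, Paics to Ppat lies between 4.10 and 5.91 (libraries from 3.64 to 6.28), Gmps to Adss goes from 0.419 to 0.187, and Adssl1 to Adss goes from 0.551 to 1.30.

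Adssl1, the muscle-type isozyme of adenylosuccinate synthetase, is not a member and was looked at after its values were seen. It measured 19.4, 24.4 and 20.8 FPKM in Pro and 38.7, 33.4 and 36.7 in Ortho, with no overlap. Its fold change from Pro was 0.45 for Baso, 0.83 for Poly and 0.73 for Ortho (adjusted p 0.000117), short of the fold threshold as deposited. With hemoglobin left out, 4 genes of the salvage list, to which Adssl1 belongs, were called higher in Ortho instead of 2. The values of Adssl1 under the other scalings are not given here. The neutrophil markers were higher in Ortho as well, and their part in the Adssl1 values was not tested. Its share of the summed FPKM of Adssl1 and Adss was 35.2% ± 6.03 in Pro and 56.4% ± 1.28 in Ortho.

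Between the later stages the members differed little. In Poly compared with Baso, 0 of 10 members were called lower and 0 higher by limma, where 0.454% of all genes were called lower and 0.0616% higher. No member reached an adjusted p under 0.05 with the values as deposited. At an unadjusted p under 0.05, 4 members were lower in Poly (Ppat, Paics, Impdh2 and Gmps) and 0 higher. For this unadjusted rule the share of all genes was not counted, here or below, so such numbers are descriptions only. The largest difference was that of Ppat (-0.35, 95% confidence interval -0.593 to -0.11, adjusted p 0.0596), and the smallest that of Atic (0.04, -0.174 to 0.247). With median centring, Ppat (-0.40, adjusted p 0.0356) and Gmps (-0.29, 0.0449) passed by adjusted p, both short of the fold threshold. The share of all genes by that rule was not counted under this scaling. In Ortho compared with Poly, 0 were called lower and 0 higher, beside 4.81% and 1.05% of all genes, and 4 were lower at an unadjusted p under 0.05 (Paics, Adsl, Impdh2 and Gmps). By adjusted p alone Paics (-0.35, 0.0326), Adsl (-0.48, 0.0329) and Gmps (-0.28, 0.0277) were lower in Ortho, all short of the fold threshold and beside 21.7% of all genes lower by that rule. None of the 3 passed with hemoglobin left out (adjusted p 0.153, 0.117 and 0.201) or with median centring (0.173, 0.126 and 0.266). With all libraries brought to one sum, Paics (-0.54, 0.00267), Adsl (-0.64, 0.00672) and Gmps (-0.44, 0.00319) passed by adjusted p. Gart (-0.36, 0.00797) and Impdh2 (-0.41, 0.00477) then passed as well. All were short of the fold threshold, and the share of all genes by this rule was not counted under that scaling. The smallest difference was that of Adss (-0.05, -0.271 to 0.166).

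The greater part of each reduction was therefore present at the first step. The log2 change from Pro to Baso amounted to 64.0% of the change from Pro to Ortho for Paics, 65.2% for Gmps, 74.0% for Ppat, 76.4% for Impdh2, 82.3% for Gart, 86.2% for Pfas and 86.4% for Adsl. For Atic it was 115%, its lowest mean being that of Baso. These shares are descriptions and carry no test.

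Genes that supply the route were followed in lists of related enzymes, whose counts stand beside 8.54% lower and 1.82% higher among all genes in Baso and 23.8% lower and 6.33% higher in Ortho. Of 5 tested genes for PRPP synthesis, 2 were called lower and 0 higher in Baso and the same numbers in Ortho, with a median log2 fold change of -0.92 and -0.99. Prps1, a PRPP synthetase, went from 42.3 FPKM in Pro to 13.4 in Ortho (-1.59, adjusted p 3.59e-08), and its paralog Prps1l3 from 41.0 to 12.7. How far reads can be assigned between these paralogs was not measured. The regulatory subunit gene Prpsap1 was at -1.05 in Baso and -0.99 in Ortho, and Prpsap2 at 0.04 and 0.22, not called.

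Of 16 tested genes for folate one-carbon and serine supply, 4 were called lower in Baso and 7 in Ortho, and 0 higher in either, with medians of -0.44 and -0.70. Mthfd1, which makes the formyl-folate that Gart and Atic use, went from 106.3 FPKM in Pro to 20.2 in Baso and 14.0 in Ortho, a fall by 2.34 and 2.82 (adjusted p 2.93e-08 in Ortho). Shmt2, the mitochondrial serine hydroxymethyltransferase, fell by 1.01 in Baso and 1.36 in Ortho. Mthfd2, the mitochondrial dehydrogenase, did not pass the fold threshold against Pro, at 0.37 in Baso and -0.52 in Ortho. Tyms, the thymidylate synthase, was at -0.22 in Baso (adjusted p 0.576) and fell by 1.73 in Ortho.

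Salvage genes were mixed. Of 21 tested genes for purine salvage and interconversion, 3 were lower and 1 higher in Baso and 7 lower and 2 higher in Ortho, with medians of -0.09 and -0.18 beside -0.23 and -0.43 for all genes. Hprt, which recovers hypoxanthine and guanine, went from 113.7 FPKM in Pro to 49.0 in Ortho, a fall by 1.19 (adjusted p 3.34e-06). Pnp, the purine nucleoside phosphorylase, was at -0.27 in Baso and -0.18 in Ortho, not called, and sharing of reads with its paralog Pnp2 was not measured. Gda, guanine deaminase, rose from 25.6 FPKM in Pro to 61.5 in Baso and 160.0 in Ortho, by 1.20 and 2.60 on the log2 scale (adjusted p 3.91e-08 in Ortho). The neutrophil markers were also higher in these stages, and their part in the Gda values was not tested. With hemoglobin left out the medians of this list were 0.22 and 0.25, and its calls 1 lower and 1 higher in Baso and 3 lower and 4 higher in Ortho (4 and 3 with median centring), so the sign of the medians and the balance of the Ortho calls rested on the scaling. Dck, the deoxycytidine kinase, stood at 0.24 in Baso and -0.92 in Ortho, short of the fold threshold.

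The pyrimidine list had 6 of 14 tested genes lower in Baso and 9 in Ortho, 0 higher, with medians of -0.81 and -1.14. Dut, the dUTPase, fell by 1.33 in Baso and 2.28 in Ortho, and Tk1, thymidine kinase, stood at -0.24 in Baso and fell by 2.30 in Ortho. The kinases Nme2 (0.71 in Ortho) and Cmpk1 (-0.38) were not called. With hemoglobin left out, the genes called lower in Baso and Ortho numbered 3 and 5 in this list, 2 and 5 in the folate list and 0 and 2 in the PRPP list, beside 3.24% and 8.88% of all genes. Under the same scaling 2 pyrimidine genes were called higher in Ortho and 0 genes of the folate and PRPP lists, beside 15.3% of all genes.

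Genes of DNA synthesis and division were also followed. Of 3 ribonucleotide reductase genes, 0 were called lower or higher in Baso (1 lower, Rrm1, at an unadjusted p under 0.05 in limma) and 2 were lower in Ortho, Rrm1 (-2.32) and Rrm2 (-1.85), while Rrm2b was at 0.65 and not called, though called higher in Ortho with hemoglobin left out and with median centring. Of 15 proliferation genes, 0 were called in Baso, with a median of 0.09 and, at an unadjusted p under 0.05 in limma, 5 lower and 6 higher, and 14 were lower in Ortho, with a median of -1.81. In Poly compared with Pro, 4 of the 15 were lower and 1 higher, beside 12.8% and 3.59% of all genes. The 4 were the replicative helicase genes Mcm2, Mcm3, Mcm5 and Mcm6, chosen for mention after their values were seen, at -1.17 to -1.45 in Poly and already at -0.53 to -0.87 in Baso (adjusted p 9.29e-06 to 4.88e-05, short of the fold threshold). Pcna was at -0.43 in Baso and -1.97 in Ortho, Top2a at 0.08 and -1.22, and Birc5 at 0.34 and -1.88, and Mki67, at -0.71, was the gene not called in Ortho. In the same comparison of Ortho with Poly, 12 of the 15 proliferation genes and 0 of the 10 purine synthesis genes were called lower, beside 4.81% of all genes. The contrast of these counts is a description, and no test between the lists was made. With all libraries brought to one sum the proliferation median in Baso was -0.09 and 2 of the 15 genes were called lower there, beside 14% of all genes. With hemoglobin left out the median in Baso was 0.405 (0.388 with median centring) and 1 gene was called higher, beside 3.76% of all genes. In Ortho 10 of the 15 were lower with hemoglobin left out, beside 8.88% of all genes.

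**Figure D4:**
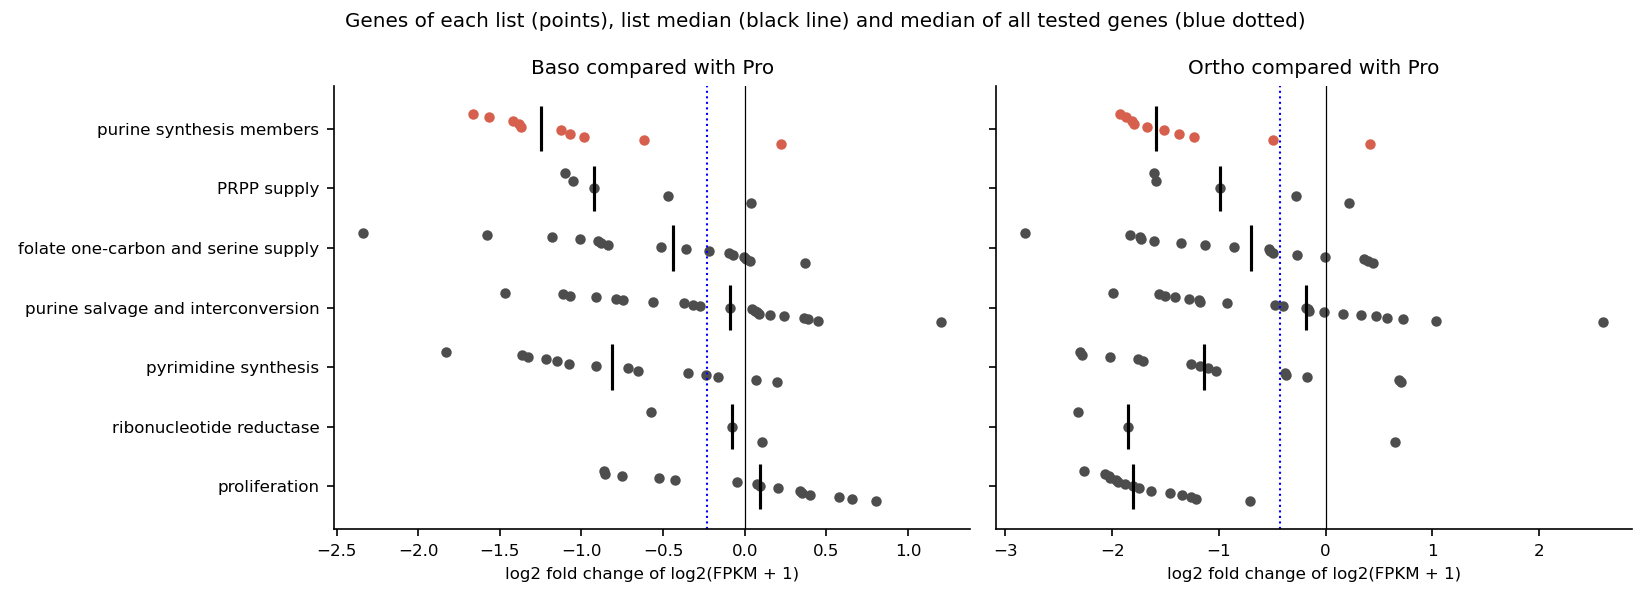
Log2 fold change on log2(FPKM + 1) (horizontal axes) of the tested genes of each list (points), the list median (black line) and the median of all genes tested (dotted). In Baso the purine synthesis median is -1.25 and the proliferation median 0.09; in Ortho they are -1.59 and -1.81.

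The profile of the members was also set against that of all other genes. Each member's log2 values were scaled to unit variance and averaged, and Pearson's r with this mean was computed over the 12 libraries. The most alike non-members were Hs2st1 (r = 0.996), Ipo5 (0.996), Ipo7 (0.995), Fam207a (0.994) and Tfam (0.993). Ipo5, an importin, went from 86.5 FPKM in Pro to 34.9 in Baso and 28.3 in Ortho, and Tfam, the mitochondrial transcription factor, from 13.4 to 6.72 and 5.57 FPKM. The 12 points fall into Pro and the later stages, so these values describe that step and carry no p. Against the mean of the other 9 members, r was -0.77 for Impdh1, 0.85 for Adss and 0.928 to 0.986 for the other members.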

How the data were processed

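RNA-seq was measured in 12 libraries of sorted WT mouse bone marrow erythroblasts, 3 per stage. The deposited values are FPKM per gene, made by the authors from reads handled, per the labels, with cutadapt, Trimmomatic, HISAT2, SAMtools and featureCounts on mm10. Versions, annotation, strand setting and the tool that gave FPKM are not given in the sources used here. The labels name Trizol extraction and NEBNext Ultra libraries, whereas the methods name direct lysis and KAPA Hyper Prep. The methods test counts with DESeq2, which FPKM do not allow, so it was not repeated here.

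From the deposited FPKM, 1 repeated line was removed, leaving 29838 genes, of which 12994 had at least 1 FPKM in at least 3 libraries. FPKM sums ran from 505624 to 691033 per library, 11964 to 12297 genes reached 1 FPKM, and within-stage correlations of log2 values were 0.973 to 0.984. FPKM steps did not give whole reads (among 825 genes with low values, 3.88% fell in the commonest bin), so depth is unknown and no counting interval could be given. limma 3.58.1 in R 4.3.3 was fitted to log2(FPKM + 1) of all 12 libraries, with the variance trend and Benjamini-Hochberg adjustment over all genes tested. Fold changes on this scale understate those of low genes. Ratios, shares and figures were made in Python 3.11.15 with numpy 2.4.6, pandas 2.3.3 and matplotlib 3.10.9. The method was tested on simulated data.

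The members and the related lists were chosen with earlier results of these data known. All 10 members are given in every comparison. In each related list the 4 tested genes with the highest mean FPKM were named, with counts for the rest, and the 5 non-members with the highest r to the members' mean. Adssl1, the 4 Mcm genes, and Adk, Ampd3, Guk1, Itpa and Xdh lie outside this rule and were chosen after their values were seen.

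Same-numbered libraries of Baso, Poly and Ortho deviated together from their stage means (r from 0.156 to 0.319), whereas Pro did not share this with the others (0.00524 to 0.0968). The pairing comes from these values, not from the labels, and the replicate number was used as a block in an alternative. Other alternatives changed the pseudocount (0.1 and 5), filter, scaling, variance trend, libraries in the fit, call rule and each library left out in turn.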

Additional observations from a re-analysis of the deposited data

How the results depend on the processing

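Of 1190 member fold changes over all alternatives, 1150 kept their direction and their side of the threshold. Many alternatives cannot move a fold change, only its p, such as another filter or leaving out a library of a stage not compared. The share kept is therefore partly fixed by the choice of alternatives. Of 283 counts and ratios, 277 stayed within 1.5 times the count reported or, for ratios, kept their direction and call. A count of 0 that stayed 0 falls within this tolerance as well. Within that tolerance the members lower than Pro went from 7 to 5 in Baso and from 8 to 6 in Ortho, both with hemoglobin left out and with median centring. In Poly they went from 8 to 5 with hemoglobin left out and to 6 with median centring. By adjusted p alone, 1 member (Impdh1) was higher in Poly and 1 (Impdh1) in Ortho compared with Pro, and 3 were lower in Ortho compared with Poly. The Ortho minus Pro difference of the Paics to Ppat ratio was -0.12 with a pseudocount of 5 and ranged from 0.12 to 0.29 with single libraries left out, the lowest, without Pro replicate 1, missing the threshold. The cause of these shifts was not tested. Gmps in Baso crossed the fold threshold with a pseudocount of 0.1 (-1.06), with equal sums (-1.16), without Pro replicate 2 (-1.05) and without Baso replicate 3 (-1.01). Gmps in Poly did not reach it with a pseudocount of 5 (-0.91), with hemoglobin left out (-0.90) or with median centring (-0.98).

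The 12 reversals all concerned small differences between later stages. With median centring they were Atic in Poly minus Baso (-0.0121) and, in Ortho minus Poly, Impdh1 (0.0851), Adss (0.0964) and Ppat (0.0149). With hemoglobin left out they were Impdh1 (0.0731) and Adss (0.0867) and with equal sums Atic (-0.0309), all in Ortho minus Poly. With single libraries left out, Poly minus Baso ranged from -0.0134 to 0.0716 for Atic (reversed without Baso replicate 1 and, at -0.002525, without Poly replicate 2), from -0.184 to 0.0116 for Pfas (reversed without Baso replicate 2) and from -0.14 to 0.000426 for Gart (reversed without Poly replicate 1), and Ortho minus Poly from -0.194 to 0.0275 for Impdh1 (reversed without Poly replicate 3).

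With the replicate block, the members called lower numbered 7 in Baso, 8 in Poly and 8 in Ortho compared with Pro, 0 in both comparisons among the later stages, and no member changed its call. An alternative chosen after seeing the data, without Ortho replicates 2 and 3, left 8 members lower in Ortho compared with Pro and 0 compared with Poly. The number of all genes lower in Ortho compared with Pro was 3092, and 1153 with hemoglobin left out, 1293 with median centring, 4857 with equal sums, 1738 with a pseudocount of 5 and 6908 by adjusted p alone. Depth is unknown, which limits what the low values can show, and groups of 3 libraries bound the precision of every comparison.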

Other observations

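Further salvage and interconversion genes, chosen after their values were seen, were called lower in Ortho by limma and lay below Pro in every library. Adk, adenosine kinase, measured 55.1, 46.2 and 54.6 FPKM in Pro and 12.5, 12.6 and 11.8 in Ortho, with a log2 fold change of -1.47 in Baso and -1.99 in Ortho (adjusted p 3.15e-08). Ampd3, the erythrocyte AMP deaminase, had a later course, at -0.09 in Baso (adjusted p 0.506) and -1.41 in Ortho (3.71e-07), and went from 78.9, 79.2 and 83.9 FPKM in Pro to 29.5, 27.7 and 32.3 in Ortho. Guk1, guanylate kinase, was at -1.07 in Baso and -1.56 in Ortho, and Itpa, which clears inosine triphosphate, at -0.75 and -1.502. With hemoglobin left out, 3 genes of the salvage list were called lower in Ortho instead of 7. Not all of Adk, Ampd3, Guk1 and Itpa therefore kept the call under that scaling.

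Xdh, xanthine dehydrogenase, acts after guanine deaminase in purine breakdown. It measured 20.1, 18.3 and 17.2 FPKM in Pro and 42.8, 34.8 and 39.2 in Ortho, with no overlap and a log2 fold change of 1.03 (adjusted p 3.05e-06). This lies just past the fold threshold. With all libraries brought to one sum, 1 gene of the salvage list was called higher in Ortho instead of 2. The values of Xdh under the other scalings are not given here. The neutrophil markers were higher in Ortho as well, and their part in the Xdh values was not tested.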
